A study of Drosophila melanogaster with 32 samples.

Results

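The genes examined here are those of juvenile hormone synthesis, breakdown and response in mated Drosophila melanogaster females. Members were the probe sets whose platform annotation gave exactly 1 gene, that gene being jhamt, Jhe, Jhedup, Jheh2, Met, gce, tai, Kr-h1, JhI-21 or JhI-26. All 10 genes were found, with 11 probe sets, because gce had 2, among 18769 probe sets tested and 11982 genes with a probe set of their own. No filter on low values was applied, so every member was tested.

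Juvenile hormone is a sesquiterpenoid made in the corpora allata, a small endocrine gland behind the brain. It is cleared by esterases and epoxide hydrolases, and it acts by binding the receptors Met and gce, which pair with the coactivator tai and switch on target genes such as Kr-h1. In adult females the hormone promotes yolk uptake and egg maturation, and sex peptide passed on by the male at mating raises its synthesis.

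Whole adult females of the LHM laboratory stock were profiled on 32 Affymetrix arrays. From this stock, 4 populations were held to monogamy (Mono1 to Mono4) and 4 were left promiscuous (Prom1 to Prom4) for 46 generations. Females of each population were mated with males of their own population or with males of the same-numbered population of the other regime, and all were frozen 6 h after mating. The 4 groups of 8 arrays were Mono females with Mono mates (M.M) or Prom mates (M.P), and Prom females with Mono mates (P.M) or Prom mates (P.P), each of 16 crosses giving 1 array in each of 2 batches. All females had mated, so nothing here compares mated with unmated females, and a female population cannot be told apart from the males of its number.

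Values are log2 expression, on which a difference of d is a fold change of 2 to the power d. The number of populations per regime and the number of arrays limit the precision, and levels of different probe sets are not compared. Array medians lay between 5.41 and 5.50. Over all probe sets, r between the arrays of a cross was at least 0.996. As a measure of RNA quality, 3' minus 5' signal of array control transcripts was greater in batch 2, by 1.00 (actin), 0.93 (eIF-4a) and 0.40 (GAPDH). Both batches entered every population mean and every group equally. The mean level of 5 ovary and eggshell markers lay between 12.48 and 12.82 in Mono population means and between 12.58 and 12.68 in Prom population means. The mean of 4 male accessory gland markers lay between 3.57 and 3.67 across all 8 populations. In whole flies, fewer cells of a type and less RNA per cell cannot be told apart.

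The first comparison asked whether these genes differed between females that had evolved under monogamy and under promiscuity. The replicates of a regime were its 4 populations, and limma compared 4 Prom with 4 Mono population means, with p-values adjusted over the whole table by the Benjamini-Hochberg method and a threshold of 0.05. None of the 11 probe sets passed, against 0% of all probe sets. At an unadjusted p under 0.05 there were 2 of 11, jhamt and Jhe, against 6.99% of all probe sets, and both had higher means in Prom females. Neither gene's population means were fully separated between regimes, and that was true of 0 of the 11 probe sets, against 4.08% of all.

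Synthesis was represented by jhamt, the methyltransferase of a late step of hormone synthesis in the corpora allata. Its Mono population means were 6.66, 6.46, 6.82 and 6.21 in Mono1 to Mono4, and its Prom population means were 6.81, 6.78, 7.19 and 7.04 in Prom1 to Prom4. Mono4 was the lowest population and Prom3 the highest, while Mono3 lay above Prom1 and Prom2. Within each population number the Prom mean lay above the Mono mean. The mean was 6.54 ± 0.26 (SD, n = 4 populations) in Mono and 6.95 ± 0.19 (SD, n = 4) in Prom females. The difference was 0.42 ± 0.14 (SE), a fold of 1.34, with a 95% interval of 0.11 to 0.73 (limma, unadjusted p = 0.0142, adjusted p = 0.623).

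The higher mean of jhamt in Prom females was seen with both kinds of mate and in both batches. The difference was 0.37 with Mono mates and 0.47 with Prom mates, and it was 0.48 in batch 1 and 0.36 in batch 2. Single arrays ranged from 6.21 over a median of 6.47 to 7.07 in M.M, and from 5.93 over 6.57 to 7.14 in M.P. They ranged from 6.55 over a median of 6.82 to 7.57 in P.M, and from 6.57 over 6.95 to 7.70 in P.P. The groups overlapped, and jhamt had the largest spread between replicate arrays of a cross among the 11 probe sets (SD 0.33).

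Breakdown by ester hydrolysis was represented by Jhe, the juvenile hormone esterase. Jhedup, its duplicate, lies next to it in gene order on chromosome arm 2R, and whether it acts on the hormone was not tested. For Jhe the population means were 6.10, 5.83, 5.88 and 5.27 in Mono1 to Mono4, and 6.42, 6.42, 6.24 and 5.80 in Prom1 to Prom4. Population 4 was the lowest within each regime, and Prom4 lay below Mono1, Mono2 and Mono3. Within each population number the Prom mean lay above the Mono mean. The Mono mean was 5.77 ± 0.35 (SD, n = 4) and the Prom mean 6.22 ± 0.29 (SD, n = 4), a difference of 0.45 ± 0.19 (SE) or 1.37-fold, with a 95% interval of 0.01 to 0.89 (limma, unadjusted p = 0.0442, adjusted p = 0.706). The difference was 0.45 with either kind of mate, 0.35 in batch 1 and 0.55 in batch 2. It came to 0.28 without Mono4 and to 0.59 without Prom4.

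**Figure D1:**
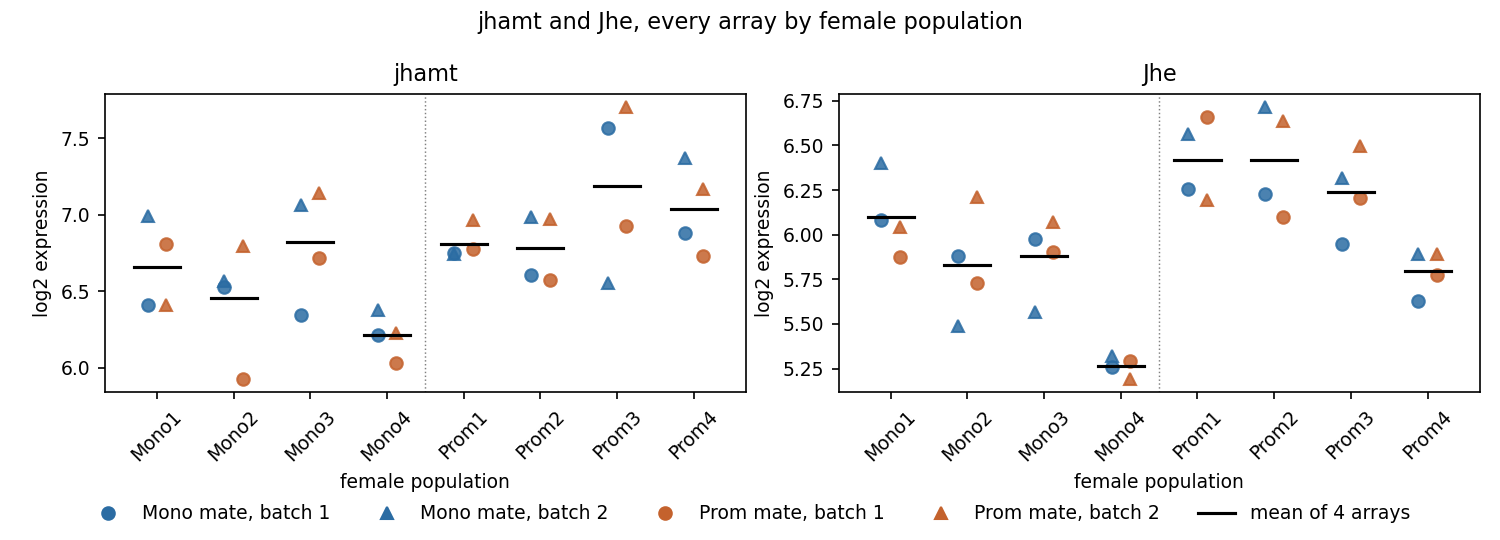
Log2 expression of jhamt and Jhe on every array (y axis) by female population (x axis), with colours for the mate's regime, circles for batch 1, triangles for batch 2 and black bars for the mean of 4 arrays. Mean jhamt runs from 6.21 in Mono4 to 7.19 in Prom3, and mean Jhe from 5.27 in Mono4 to 6.42 in Prom1 and Prom2, with overlap between regimes in both genes.

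Jhedup is an esterase gene duplicated from Jhe. Its population means ran from 5.81 to 6.04 in Mono and from 5.66 to 6.14 in Prom females. The difference was 0.09 ± 0.11 (SE; 95% interval -0.15 to 0.33; limma, adjusted p = 0.918), and it was 0.21 in batch 1 and -0.03 in batch 2. With 1 population left out it ran from 0.04 without Prom4 to 0.20 without Prom3 (limma, unadjusted p = 0.0177, adjusted p = 0.645). Jheh2, an epoxide hydrolase that opens the hormone's epoxide ring, had a difference of 0.05 ± 0.04 (SE; adjusted p = 0.870), with population means between 10.60 and 10.77. The differences of Jhe and Jhedup were not tested against each other.

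Among the receptor genes no measured difference exceeded 0.11 in size. Met, a bHLH-PAS receptor of the hormone, had population means between 5.98 and 6.19 in Mono and between 6.03 and 6.09 in Prom females. Its difference was -0.01 ± 0.05 (SE), with a 95% interval of -0.11 to 0.10. The paralogous receptor gce was lower in Prom females by its first probe set, by -0.11 ± 0.05 (SE; unadjusted p = 0.0712, limma adjusted p = 0.721), or by -0.06 without Prom1. It was higher by its second probe set, by 0.04 ± 0.06 (SE; adjusted p = 0.941). The first probe set of gce gave 4.46 to 4.49 in Mono and 4.22 to 4.48 in Prom population means, the second 4.14 to 4.40 and 4.24 to 4.38. The probe sets of gce thus had opposite signs, and neither passed. Both were dim, with means of 4.42 and 4.29 below the lowest array median of 5.41. Whether their signal stood above background was not tested. For tai, the bHLH-PAS coactivator that pairs with these receptors, the difference was -0.03 ± 0.07 (SE; adjusted p = 0.965).

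The response genes had wide intervals or small differences. Kr-h1, a zinc finger factor induced by the hormone through its receptors, had means of 7.38 ± 0.37 (SD, n = 4) in Mono and 7.64 ± 0.50 (SD, n = 4) in Prom females. The difference of 0.26 ± 0.26 (SE) had a 95% interval of -0.32 to 0.85 (limma, adjusted p = 0.893). With 1 population left out it ran from 0.07 without Prom4 to 0.46 without Prom1. JhI-26, a hormone-inducible gene whose product resembles ecdysteroid kinases, differed by 0.16 ± 0.12 (SE; 95% interval -0.13 to 0.44; adjusted p = 0.858), and by 0.09 without Mono1 to 0.25 without Mono3. JhI-21, a hormone-inducible amino acid transporter, differed by -0.05 ± 0.05 (SE; adjusted p = 0.918). The intervals of Kr-h1 and JhI-26 do not exclude differences as large as the one measured for jhamt.

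Over the 10 genes, with gce represented by its brighter probe set, 6 were higher in Prom females, with a median difference of 0.07. Over all genes, 52.9% were higher and the median was 0.00.

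**Figure D2:**
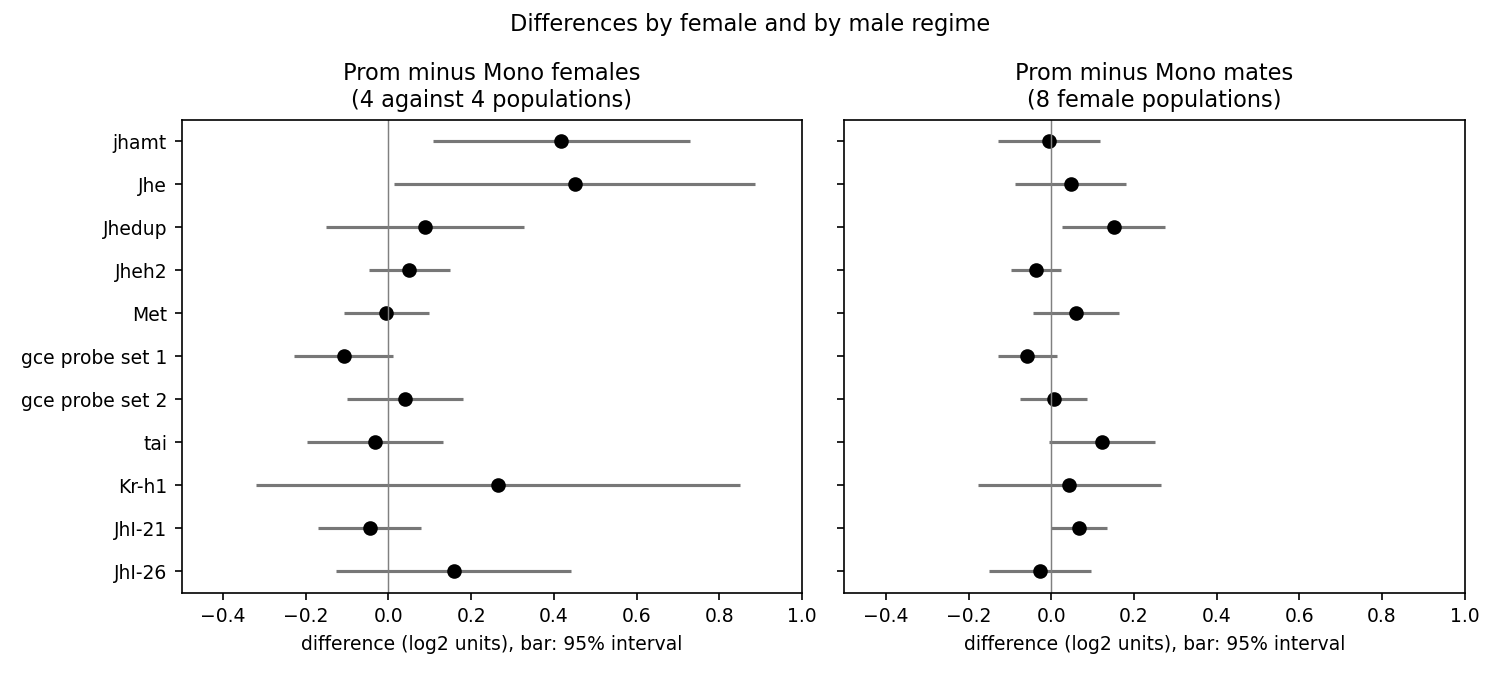
Differences in log2 units (x axis) for the 11 probe sets (y axis), Prom minus Mono females on the left and Prom minus Mono mates on the right, as points with 95% interval bars. On the left only the intervals of jhamt (0.11 to 0.73) and Jhe (0.01 to 0.89) lie above 0, and on the right only that of Jhedup (0.03 to 0.27) does.

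The second comparison asked whether a female's expression depended on the regime of her mate. The difference between Prom and Mono mates was taken within each of 8 female populations, and its mean was tested in limma. None of the 11 probe sets passed, against 0% of all, and 1 of 11, Jhedup, was under an unadjusted p of 0.05, against 10.5% of all. None had the same direction in 8 of 8 female populations, against 1.77% of all. Over the 10 genes 6 were higher with Prom mates and the median difference was 0.05, beside 53.6% and 0.00 over all genes. The mate difference was 0.00 ± 0.06 (SE) for jhamt and 0.05 ± 0.06 (SE) for Jhe.

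Jhedup averaged 5.86 with Mono mates and 6.01 with Prom mates. The mate difference was 0.06, 0.06, 0.31 and -0.09 in Mono1 to Mono4 females, and -0.03, 0.26, 0.48 and 0.16 in Prom1 to Prom4 females. It was positive in 6 of 8 populations and widest in both populations numbered 3. The mean was 0.15 ± 0.06 (SE; 95% interval 0.03 to 0.27; limma, unadjusted p = 0.0219, adjusted p = 0.420). A single low array carried part of it: without the Prom3 female by Mono3 male array of batch 2, at 4.91, the mean was 0.10 (adjusted p = 0.532). Populations of a number met the same pair of male populations, and with the differences averaged over these 4 pairs the adjusted p was 0.509.

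For tai the mean was 6.47 with Mono mates and 6.59 with Prom mates, a difference of 0.12 ± 0.06 (SE; 95% interval -0.01 to 0.25; limma, adjusted p = 0.492). It was higher with Prom mates in 6 of 8 populations, but the difference was 0.27 in batch 1 and -0.02 in batch 2, and it was 0.08 without Mono3. JhI-21 was higher with Prom mates in 6 of 8 populations and by 0.07 ± 0.03 (SE; unadjusted p = 0.0543, adjusted p = 0.483). Met was higher with Prom mates in 7 of 8 populations, all but Mono1, and its mean difference was 0.06 ± 0.05 (SE; adjusted p = 0.664). It was 0.11 without Mono1 and 0.02 without Mono2.

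Levels of 3 muscle markers were higher with Prom mates in 3 of 3 genes (median 0.15), and those of 4 midgut markers lower in 4 of 4 (median -0.07). None of these passed. An unadjusted p under 0.05 was found for 2 of each list, against 10.5% of all probe sets, and their part in the mate differences of Jhedup and tai was not tested. The mate difference in Prom females minus that in Mono females was -0.30 for sls, -0.27 for bt and -0.16 for up among muscle markers. Among midgut markers it was -0.25 for Jon99Ci and between -0.08 and -0.04 for the others. In limma the unadjusted p was 0.00202 for Jon99Ci, 0.00285 for bt and 0.0312 for sls, and none passed. The accessory gland list, which includes the sex peptide gene SP, had a median mate difference of -0.02.

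The interaction asked whether the mate difference depended on the female's own regime. None of the 11 probe sets passed, against 0% of all, and 0 of 11 were under an unadjusted p of 0.05, against 7.28% of all. Kr-h1 had the largest interaction in size, with a mate difference of 0.20 in Mono females and -0.12 in Prom females. The interaction was -0.32 ± 0.20 (SE; 95% interval -0.77 to 0.12; limma, unadjusted p = 0.139, adjusted p = 0.739). Its widest opposite pair was population 3. The mean of 2 arrays was 6.79 for Mono3 females with Mono3 mates and 7.38 with Prom3 mates, while it was 8.14 for Prom3 females with Mono3 mates and 7.55 with Prom3 mates. Mono3 and Prom3 females thus lay farther apart with Mono3 mates (6.79 against 8.14) than with Prom3 mates (7.38 against 7.55). With 1 female population left out the interaction ran from -0.49 without Mono1 to -0.16 without Prom3.

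**Figure D3:**
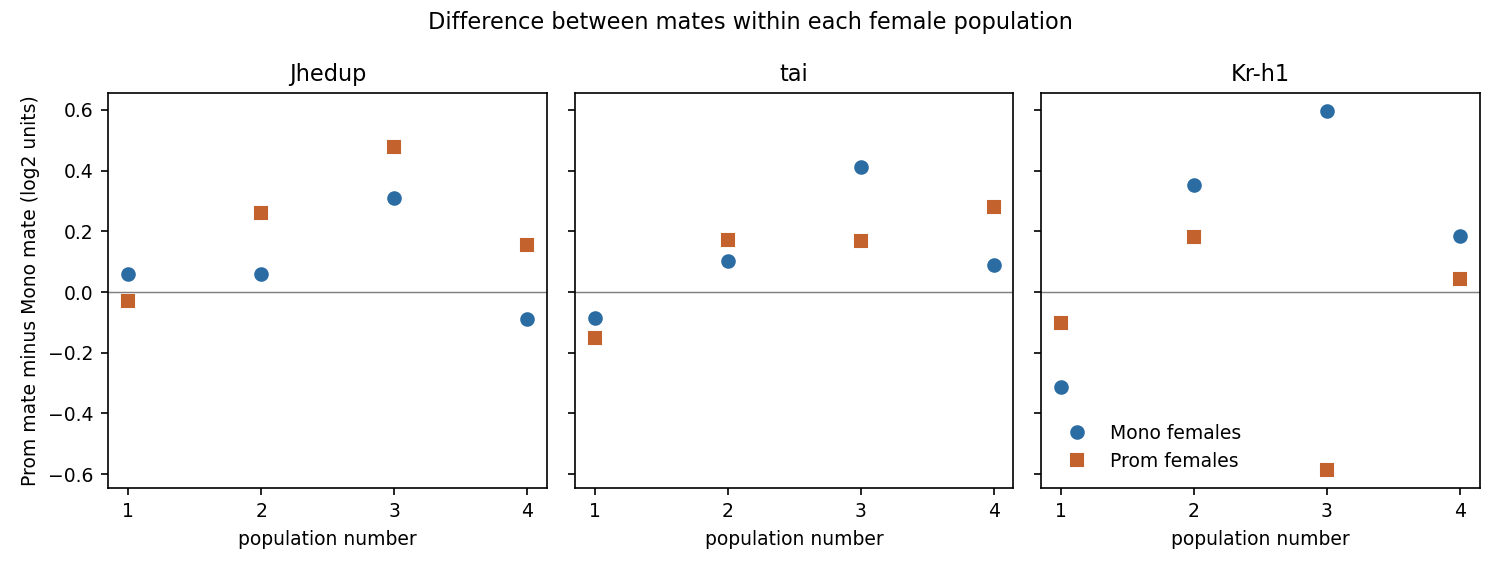
Difference between mates in log2 units (y axis, Prom minus Mono mate) for Jhedup, tai and Kr-h1 within each female population, by population number (x axis), with circles for Mono and squares for Prom females. Jhedup is positive in 6 of 8 populations, and Kr-h1 is at 0.60 in Mono3 and -0.59 in Prom3 females.

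The third comparison asked how far populations of the same regime differed. It was a moderated F test in limma on the 32 arrays, with crosses and batch as terms, and it covers both the female population and the males of its number. Of the 11 probe sets 4 passed, Jhe, Kr-h1, JhI-26 and JhI-21, against 13.7% of all probe sets. With Mono populations alone 3 passed, against 10.7% of all, and with Prom populations alone 3 passed, against 7.67%. Jhe, Kr-h1 and JhI-26 passed in each regime. For the 10 genes the wider of the ranges of population means within a regime had a median of 0.37, beside 0.19 over all genes.

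Kr-h1 had the widest range among the members. Its population means were 7.67, 7.04, 7.08 and 7.72 in Mono1 to Mono4, and 7.05, 7.46, 7.84 and 8.22 in Prom1 to Prom4. Prom4 was the highest and Mono2, Prom1 and Mono3 the lowest, so the low end was shared by both regimes. The 4 Prom4 arrays lay between 7.96 and 8.44 and the 4 Prom1 arrays between 6.76 and 7.45, without overlap. The ranges came to 1.60-fold in Mono and 2.24-fold in Prom populations (adjusted p = 0.000652 over both regimes), and 1.44% of all probe sets had a wider range. The widest range of 1.16 came to 0.76 without Prom1 and to 0.79 without Prom4, and the call held. In both batches Prom4 was the highest population, at 8.33 in batch 1 and 8.11 in batch 2.

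Jhe differed among populations within each regime. Its range was 0.83 among Mono populations, from 5.27 in Mono4 to 6.10 in Mono1, and 0.62 among Prom populations, from 5.80 in Prom4 to 6.42 in Prom1 and Prom2. The limma F test among populations passed (adjusted p = 0.000966 over both regimes), and 2.74% of all probe sets had a range wider than 0.83. Mono4 was the lowest population in both batches, at 5.28 and 5.26.

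JhI-26 had population means of 7.35, 7.61, 7.82 and 7.39 in Mono1 to Mono4, and of 7.73, 7.42, 7.76 and 7.88 in Prom1 to Prom4. Mono1, Mono4 and Prom2 formed the low end. The ranges were 0.48 and 0.46, 1.39-fold and 1.38-fold (adjusted p = 0.00350). Its order differed in part from that of Kr-h1: Mono4 was among the lowest populations for JhI-26 and the highest Mono population for Kr-h1. Prom4 was the highest population for both, at 7.88 for JhI-26 and 8.22 for Kr-h1. For JhI-26 this held in batch 2 (7.97), but in batch 1 Mono3 was the highest at 7.94, with Prom4 at 7.80.

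JhI-21 passed with a small range. Its population means were 10.58, 10.62, 10.61 and 10.43 in Mono1 to Mono4, and 10.57, 10.55, 10.55 and 10.39 in Prom1 to Prom4. The lowest population of each regime was number 4, 0.18 below the highest in Mono and 0.17 in Prom (adjusted p = 0.0463). The call did not hold without the batch term (adjusted p = 0.122), nor without Mono1 (0.0529), Mono2 (0.0781), Mono4 (0.291), Prom1 (0.0536), Prom3 (0.0618) or Prom4 (0.181). Nor did it pass within Mono (adjusted p = 0.101) or within Prom populations alone (adjusted p = 0.151).

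**Figure D4:**
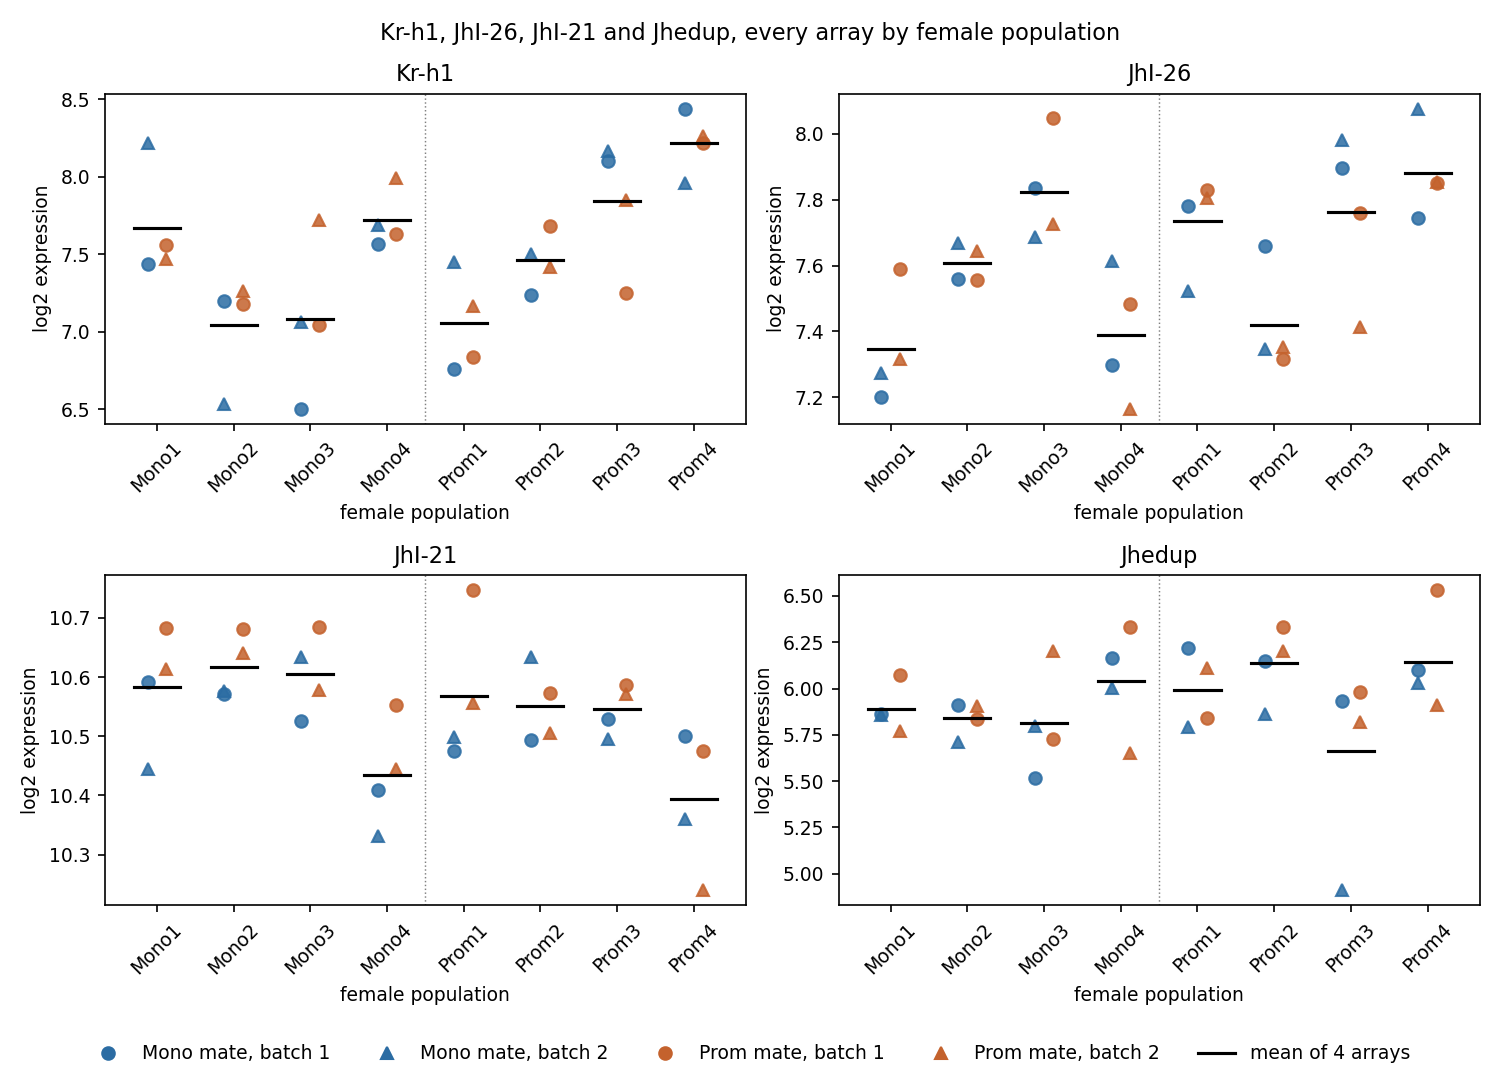
Log2 expression of Kr-h1, JhI-26, JhI-21 and Jhedup on every array (y axis) by female population (x axis), with symbols as for jhamt and Jhe. Mean Kr-h1 runs from 7.04 in Mono2 to 8.22 in Prom4, JhI-21 is lowest in Mono4 (10.43) and Prom4 (10.39), and Jhedup has 1 low array at 4.91 in Prom3.

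The other members did not pass. For jhamt the range was 0.61 among Mono and 0.40 among Prom populations (adjusted p = 0.220), with 5.03% of all probe sets wider. Jhedup (adjusted p = 0.296), Jheh2 (0.330), Met (0.633), both gce probe sets (0.469 and 0.199) and tai (0.454) did not pass in the same limma fit. Met stayed within 0.21 in Mono and 0.06 in Prom populations. Midgut markers also differed among populations, with 4 of 4 passing this test, while 0 of 5 ovary and eggshell markers and 1 of 6 fat body markers passed, against the 13.7% of all probe sets. The part of midgut in the population differences was not tested.

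Batches differed for some members. In the fit of the population test 4 of 11 probe sets passed for batch, against 19.8% of all, and all 4 were lower in batch 2. They were tai by -0.34 (adjusted p = 0.00155), the second gce probe set by -0.29 (adjusted p = 0.000106), Met by -0.15 (adjusted p = 0.0227) and Jheh2 by -0.13 (adjusted p = 0.00511). Of 16 crosses, 15 were lower in batch 2 for tai and for that gce probe set, and 14 for Met and Jheh2. For jhamt the batch difference was 0.26 (adjusted p = 0.0794) and for Kr-h1 0.19 (adjusted p = 0.165). The 3' minus 5' signal of the control transcripts was also higher in batch 2, in 16 of 16 crosses for each control, and its part in these differences was not tested. For comparison, the population means of the actin control difference overlapped between regimes, at 2.30 to 2.61 in Mono and 2.29 to 2.50 in Prom.

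**Figure D5:**
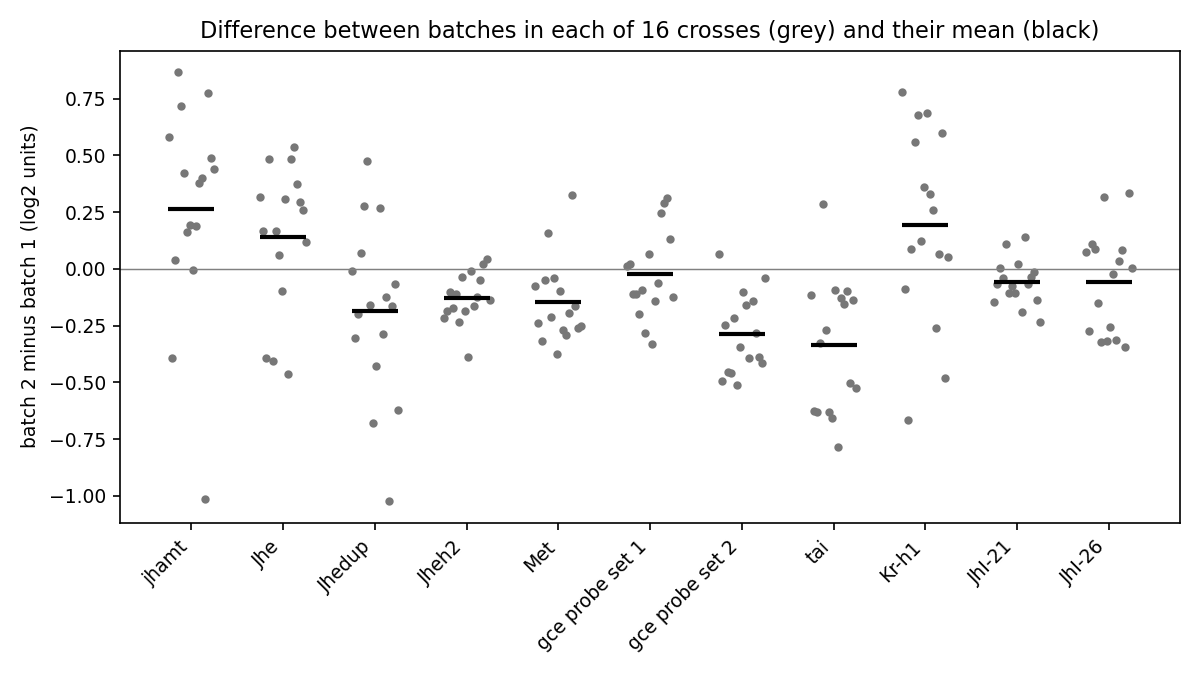
Difference between batches in log2 units (y axis, batch 2 minus batch 1) in each of 16 crosses (grey points) and their mean (black bars) for the 11 probe sets (x axis). For tai and the second gce probe set 15 of 16 crosses lie below 0, and for jhamt 13 of 16 lie above.

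Other genes of the pathway were read from 4 lists. None of their genes passed in the female or the mate comparison. The first list covered isoprenoid supply, that is mevalonate steps and diphosphate synthases, with 6 of 8 genes measured. In Prom females 3 were higher (median -0.01), and 3 of 6 passed between populations, against 13.7% of all probe sets. These were Mvd, a mevalonate pathway decarboxylase (range 0.47, adjusted p = 1.49e-05), the geranylgeranyl diphosphate synthase gene qm (0.35, adjusted p = 0.0252) and the farnesyl diphosphate synthase gene Fpps (0.19, adjusted p = 0.0355). Mvd ran from 8.39 in Mono4 to 8.74 in Mono2, and from 8.33 in Prom4 to 8.80 in Prom1. The Mvd call held with each population left out. The qm call was lost without Mono2 (adjusted p = 0.0905) and without Prom3 (range 0.21, adjusted p = 0.322). The Fpps call was lost without the batch term (adjusted p = 0.0859) and without Mono3 (0.0651), Prom1 (0.0579), Prom2 (0.122) or Prom3 (range 0.11, adjusted p = 0.285).

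The second list held other hydrolases and carriers, of which 4 of 8 were measured and 3 were higher in Prom females (median 0.02). The lipid droplet protein gene Lsd-2 had a difference of -0.14 ± 0.06 (SE; unadjusted p = 0.0407, limma adjusted p = 0.691). It was the 1 gene of 4 that passed among populations (range 0.25, adjusted p = 0.0224), against 13.7% of all probe sets. That call was lost without the batch term (adjusted p = 0.169), without Mono1 (0.149) and without Mono4 (0.0926).

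The third list held regulators of the gland, with 9 of 14 measured and 5 higher in Prom females (median 0.01). SPR, the receptor of sex peptide, had population means of 7.70, 6.10, 6.67 and 6.93 in Mono1 to Mono4, and 7.61, 6.93, 7.76 and 7.40 in Prom1 to Prom4. Mono2 was the lowest and Prom3 and Mono1 the highest, and the range of 1.60 among Mono populations passed (adjusted p = 1.93e-06). The widest range was 0.84 without Mono1 and 1.03 without Mono2, and the call held without each of them. A second SPR probe set did not pass (adjusted p = 0.409), but its mean of 3.04 lay far below the lowest array median of 5.41. Whether its signal stood above background was not tested. InR, the insulin receptor, was lower in Prom females by -0.30 ± 0.10 (SE; unadjusted p = 0.0164, limma adjusted p = 0.627). Its Mono population means were 8.33 to 8.40 and its Prom means 7.72 to 8.27, without overlap, against 4.08% of all probe sets. Of the other measured genes of the 4 lists, only the yolk protein gene Yp3 lacked overlap (difference 0.04, limma, unadjusted p = 0.201). The InR range of 0.54 among Prom populations passed (adjusted p = 0.0337) but was lost without Prom1 (range 0.16, adjusted p = 0.642) and without Prom4 (adjusted p = 0.130). Without Prom1 the difference between regimes was -0.19. SPR and InR were the 2 of 9 genes that passed among populations, against 13.7% of all probe sets.

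With mates, the insulin-like peptide gene Ilp5 was lower with Prom mates in 8 of 8 female populations, against 1.77% of all probe sets with 1 direction throughout, by -0.14 ± 0.03 (SE; unadjusted p = 0.00152, limma adjusted p = 0.402). Another insulin-like peptide gene, Ilp2, differed by -0.09 (unadjusted p = 0.0243). Ilp5 and Ilp2 were the 2 of 9 genes of this list with an unadjusted p under 0.05 between mates, against 10.5% of all probe sets. Both peptides are made by insulin-producing cells of the brain.

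The fourth list held receptor partners and response genes, and also the Dpp signalling genes dpp and Mad, with 14 of 18 measured. In Prom females 7 were higher (median -0.02), beside 52.9% of all genes, and 12 were higher with Prom mates (median 0.03), beside 53.6%. In the female comparison 5 of 14 had an unadjusted p under 0.05, against 6.99% of all probe sets, namely dpp and 4 others. They were ftz-f1, a nuclear receptor (-0.21 ± 0.06, SE; limma, unadjusted p = 0.00988, adjusted p = 0.604), and Mad, the transducer of Dpp signals (-0.16 ± 0.05, SE; limma, unadjusted p = 0.0175, adjusted p = 0.634). The others were Fkbp39, which binds hormone response elements (0.11 ± 0.04, SE; limma, adjusted p = 0.640), and the yolk protein gene Yp2 (0.11 ± 0.04, SE; limma, adjusted p = 0.687). The difference of dpp was 0.15 (unadjusted p = 0.0471). For Mad the difference was -0.07 in batch 1 and -0.25 in batch 2, and its Mono1 mean of 10.24 lay within the Prom means (10.19 to 10.25). By a second, slightly dimmer probe set ftz-f1 differed by -0.16 (limma, unadjusted p = 0.0504). With mates, 2 of 14 had an unadjusted p under 0.05, against 10.5% of all probe sets. These were EcR, the ecdysone receptor (0.14; limma, unadjusted p = 0.0200), and the ligand gene dpp (0.08; unadjusted p = 0.0207). Among populations br, a transcription factor of hormone responses, was the 1 gene of 14 that passed, against 13.7% of all probe sets. Of its 5 probe sets 1 passed (range 0.50, adjusted p = 0.0458), and the other 4, with means of 3.86 to 6.21, did not. The call was lost without the batch term (adjusted p = 0.0757) and without Mono2 (0.174), Mono4 (0.124), Prom1 (0.0604) or Prom4 (0.166).

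The genes most alike each member across the 16 cross means, by Pearson's r over all single-gene probe sets, were named as a description. They share arrays, batches and populations with the member, and the highest of so many correlations is high by selection. For jhamt they were TrpRS (0.88) and CG3857 (0.87), for Jhe CG8860 and Tmlh (both 0.88), and for Kr-h1 mdy (0.87) and CG1440 (0.86). JhI-26 was most like CG1468 (0.90) and Ubc7 (0.83), and JhI-21 most like Vps35 (0.88) and mon2 (0.86). Jhedup was most like CG1317 (0.78), Jheh2 like CG30269 (0.87), Met like lncRNA:CR43978 (0.81), gce like CG10814 (0.87) and tai like HGTX (0.79). No member was among the closest genes of another.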

How the data were processed

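The authors deposited 1 table of log2 expression, with a value for each probe set on each array. The submitters' processing notes name RMA and affy and give no versions. RMA brings arrays to a common distribution, which would hide a shift of most transcripts, and the sources used here do not say how many runs were made. Of 18952 probe sets, 183 array controls were left out. Platform annotation gave 13647 probe sets 1 gene, 402 several and 4720 none named here. Gene order and arms came from the RefSeq table of Release 6 plus ISO1 MT. The members and all gene lists were chosen with earlier results of these data known.

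Tests used limma 3.58.1 in R 4.3.3, two-sided, with Benjamini-Hochberg adjustment over 18769 probe sets, and were tested on simulated data. The female comparison used 8 population means (6 residual degrees of freedom). The mate comparison used 16 cross means with female population as a block (6 residual degrees of freedom) and took as independent 8 differences that share 4 pairs of male populations. Population and batch tests used 32 arrays (15 residual degrees of freedom). List genes were named where they passed between populations, or had an unadjusted p under 0.05 in the female or mate comparison, up to 4 per list and comparison, and the closest genes were the 2 with the highest r. For a list gene with more than 1 probe set, the brightest was used. Alternatives were cyclic loess, an intensity trend, blocks, additive terms, single batches, a mean log2 of at least 6, and leaving out populations or arrays.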

Additional observations from a re-analysis of the deposited data

Results flagged for a closer look

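Samples far from the rest of their group were found in 3 of 44 groups of 8 arrays and 1 of 22 sets of 4 population means; chance gives about 1 in 20. In P.M, Jhedup was at 4.91 in the batch 2 array of Prom3 females with Mono3 mates, beside 5.79 to 6.22 in the others. In P.M, Jheh2 was at 10.37 in the batch 2 array of Prom1 females with Mono1 mates, beside 10.69 to 10.85. In P.P, the second gce probe set was at 4.62 in the batch 1 array of Prom3 females with Prom3 mates, beside 4.20 to 4.38. Among Prom populations, JhI-21 was at 10.39 in Prom4, beside 10.55 to 10.57 in the other 3.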

How the results depend on the processing

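No member passed the female, mate or interaction test under any alternative run, including each left-out population and each of 3 left-out arrays, which were chosen after seeing the data. Same-numbered populations deviated together at r = 0.13, 0.07, 0.19 and 0.02, and the main female test did not take the numbers as pairs. Mono and Prom females of a number did meet the same male populations. With a replicate block for population number 0 members passed. In limma that block gave jhamt an unadjusted p of 0.00860 (adjusted p = 0.577) and Jhe one of 0.000241 (adjusted p = 0.336). With single arrays and a random population block 127 probe sets passed in the female comparison and 0 of them were members, against 0 passing with population means. Between populations 3 to 4 members passed, and 3 without the batch term. The signs that turned belonged to values that had passed no test, and the cause was not tested. In single batches the female difference turned for Jhedup (batch 2, -0.032), the second gce probe set (batch 1, -0.0063) and tai (batch 2, 0.0014). The mate difference turned for jhamt (batch 2, 0.092), Met (batch 2, -0.013), the second gce probe set (batch 1, -0.0011), tai (batch 2, -0.021) and JhI-26 (batch 1, 0.058). The interaction turned for jhamt (batch 1, -0.20), Jhe (batch 2, -0.25), Jhedup (batch 1, -0.058), Jheh2 (batch 1, -0.014), the gce probe sets (batch 2, -0.012 and 0.094) and tai (batch 1, 0.078). The batch difference of the first gce probe set was 0.0066 after cyclic loess. Without the Prom3 by Prom3 array of batch 1 the mate difference was 0.027 for jhamt and -0.00054 for the second gce probe set. Without the Prom3 by Mono3 array of batch 2 the interaction was -0.060 for jhamt and 0.018 for tai. Without the Prom1 by Mono1 array of batch 2 it was -0.026 and 0.014 for the gce probe sets and 0.018 for tai. Leaving out each population gave female differences of -0.036 to 0.033 for Met, -0.0050 to 0.084 for the second gce probe set and -0.068 to 0.022 for tai. It gave mate differences of -0.051 to 0.032 for jhamt, -0.018 to 0.027 for that gce probe set, -0.021 to 0.13 for Kr-h1 and -0.072 to 0.014 for JhI-26. It gave interactions of -0.10 to 0.089 for Jhe, -0.040 to 0.13 for Met, -0.021 to 0.048 and -0.052 to 0.039 for the gce probe sets, and -0.084 to 0.082 for tai.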
